A study of Mus musculus with 2 samples.

Results

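The miR-30 family is a group of miRNAs whose 5p arms share a seed, and its members were read here in the testes of adult mice. The 9 members described were chosen by name among 1905 mature miRNAs in the counts. They are the 5p arms mmu-miR-30a-5p, mmu-miR-30b-5p, mmu-miR-30c-5p, mmu-miR-30d-5p and mmu-miR-30e-5p and the 3p arms mmu-miR-30a-3p, mmu-miR-30b-3p, mmu-miR-30d-3p and mmu-miR-30e-3p, named without the species prefix from here on. All 9 reached the 10 reads that a test required. sncRNA-Seq was made from pools of testes of male mice at postnatal day 60, with 1 library from control mice and 1 from mice exposed to a mixture of endocrine disruptor compounds (EDCs). Per the methods, RNA was pooled in equal amounts (n = 3), so that n is the size of a pool and the number of libraries per group is 1. The strain is given as C57BL/6 in the sample labels and C57BL/6J in the methods. The mixture held the phthalates DEHP, DBP and BBP, each at a daily dose of 0.3 mg per kg, and the alkylphenols 4-nonylphenol and 4-tert-octylphenol at 0.05 mg per kg. Mothers drank it from post-coital day 0.5 until weaning, and their sons continued on it to the endpoint. Control mice drank water with the vehicles, DMSO and ethanol, over the same time. The libraries held 550261 reads of mature miRNAs in control and 501539 in exposed mice.

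A miRNA is cut from a hairpin precursor by Drosha and Dicer, and the 5′ and 3′ sides of the hairpin give the 5p and the 3p arm. In most hairpins 1 of the arms is loaded into an Argonaute protein and kept, while the other is degraded. The loaded arm pairs with mRNAs mainly through its seed, bases 2 to 8, and represses them, so that miRNAs with 1 seed share many targets. The miR-30 family is expressed in many tissues. In human cells miR-30a is known to repress BECN1, a gene of autophagy.

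Mature sequences of 5 of the 9 members were found in the RefSeq table of GRCm38.p6, the assembly that mm10 names. They are shown here because the arms differ in their seeds and lie close to each other in sequence, with the seed in capitals and the 5′ end first.
miR-30a-5p: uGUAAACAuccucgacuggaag
miR-30e-5p: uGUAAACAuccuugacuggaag
miR-30c-5p: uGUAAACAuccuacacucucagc
miR-30a-3p: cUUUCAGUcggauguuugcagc
miR-30e-3p: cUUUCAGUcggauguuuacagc
The printed 5p arms share the seed GUAAACA and their first 12 bases. Counted from 1 at the 5′ end, miR-30a-5p and miR-30e-5p differ by 1 base, C13U, and miR-30a-5p and miR-30c-5p by 5 of the 22 bases compared. miR-30a-3p and miR-30e-3p share another seed, UUUCAGU, and differ by 1 base, G18A. The arms are 22 or 23 bases long and a read covers a whole arm, so levels were compared without a correction for length. A base of difference is fewer than the 3 mismatches allowed when the reads were aligned. A read with an error or an edited base can thus be placed on a near copy, and values of miR-30a against miR-30e are uncertain to that extent. For the arms of miR-30b and miR-30d, whose sequences were not found, the distance to the other arms was not examined. The same limit may hold for them.

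The hairpins of miR-30a and miR-30e are shown because their arm use differed between the libraries, with both arms in capitals and the loop and stem ends in lower case.
Mir30a: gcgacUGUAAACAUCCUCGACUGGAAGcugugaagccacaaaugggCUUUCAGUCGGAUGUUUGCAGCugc
Mir30e: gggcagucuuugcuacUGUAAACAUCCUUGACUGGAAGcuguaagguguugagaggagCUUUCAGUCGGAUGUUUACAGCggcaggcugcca
The hairpins of the family lie at 3 loci of GRCm38. Mir30a is at chr1:23272269-23272339 on the plus strand, 19.4 kb from Mir30c-2 (chr1:23291701-23291784). Mir30e is at chr4:120772606-120772697 on the minus strand, 2.98 kb from Mir30c-1 (chr4:120769534-120769622), and both lie on the same strand in introns of Nfyc, which encodes a subunit of the transcription factor NF-Y. Mir30b (chr15:68337415-68337510) and Mir30d (chr15:68341208-68341289) are 3.70 kb apart on the minus strand, in exons of the noncoding transcripts Gm26621 and Gm20732 of GENCODE M21. Mir30a overlaps no other gene of that annotation, and Mir30c-2 lies in an exon of the noncoding Gm27028. miR-30c-5p is made by both Mir30c-1 and Mir30c-2. The counts list 0 reads as not uniquely aligned, so a read of miR-30c-5p may be counted at each hairpin which would make its interval and p-value too narrow and too low.

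Most miR-30 reads came from 5p arms. The 5 5p arms together made up 6.70% of the mature reads in control testes (95% interval 6.63 to 6.76%, Clopper-Pearson) and 7.39% in exposed mice (7.32 to 7.46%). The 4 3p arms of the member list took 0.271% (0.257 to 0.285%) and 0.238% (0.225 to 0.252%). Here and below, intervals hold counting error alone, and PCR copies of 1 molecule are not independent.

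miR-30a-5p was the most abundant member, with 11762 control reads (2.14% of the library, rank 10 of all mature miRNAs) and 12469 reads in exposed mice (2.49%, rank 9). miR-30d-5p followed, with 11234 reads (2.04%, rank 11) and 11948 (2.38%, rank 10). Of the reads of this pair miR-30a-5p took 51.1% in control mice (50.5 to 51.8%) and 51.1% in exposed mice (50.4 to 51.7%), so that the order was the same in both libraries and the difference was small. miR-30c-5p had 8095 reads (1.47%, rank 20) and 6601 (1.32%, rank 24), and miR-30e-5p had 4848 (0.881%, rank 32) and 5370 (1.07%, rank 28). miR-30b-5p was the least abundant 5p arm, with 911 reads (0.166%, rank 90) and 681 (0.136%, rank 94). miR-30a-5p thus had 12.9 times as many reads as miR-30b-5p in control mice and 18.3 times as many in exposed mice. If each miR-30c-5p read was counted at both hairpins, its level would be below that of miR-30e-5p, since 4048 and 3300 reads remained when its reads were halved.

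Among the 3p arms, miR-30a-3p was read 727 times (0.132%) in control and 596 times (0.119%) in exposed testes, and miR-30e-3p had 698 (0.127%) and 541 (0.108%). These neighbours in the order of levels could not be told apart by counting error, as miR-30a-3p took 51.0% of the reads of the pair in control mice (48.4 to 53.6%) and 52.4% in exposed mice (49.5 to 55.4%). miR-30b-3p had 55 and 45 reads, and miR-30d-3p 11 and 14, or 0.00200% and 0.00279% of the reads. The members therefore ranged from the 10 most abundant miRNAs of a library down to a miRNA at the edge of the depth, with a ratio of 1069 in control mice and 891 in exposed mice between the highest and the lowest.

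**Figure D1:**
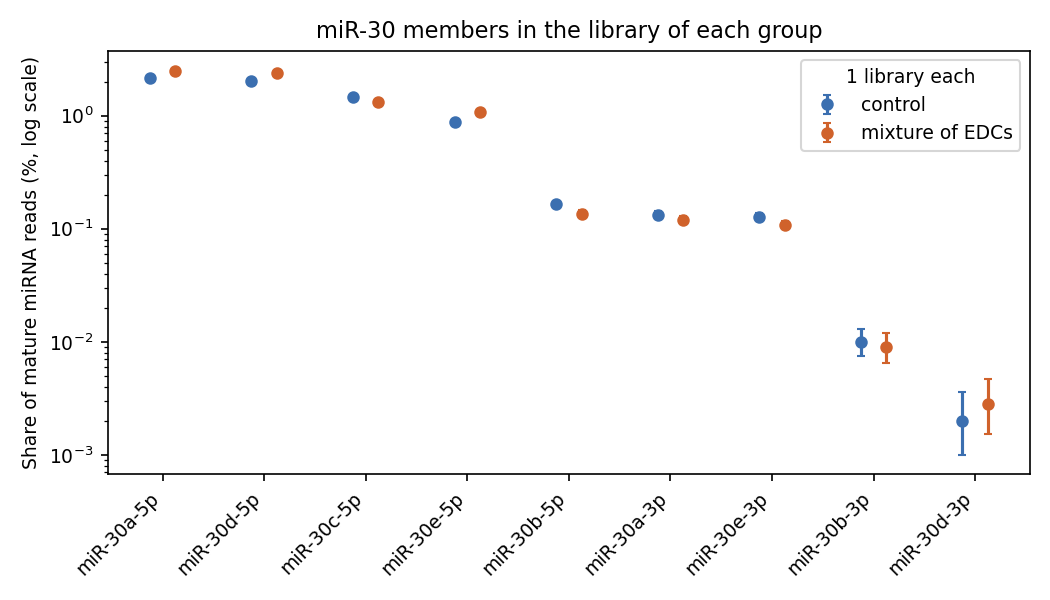
Share of the mature miRNA reads (%, log scale) of each miR-30 member, with control in blue and the mixture of EDCs in orange; bars are exact 95% intervals of counting error. The 5p arms of miR-30a, miR-30c, miR-30d and miR-30e lie near or above 1%, miR-30b-5p, miR-30a-3p and miR-30e-3p between 0.108 and 0.166%, and miR-30d-3p at 0.00200 and 0.00279%.

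The comparison of exposed with control mice addressed whether the mixture of EDCs goes with another level of each arm. The reads were scaled by median-of-ratios size factors (1.07 for control, 0.937 for exposed mice). A 2-sided exact binomial test was run on the reads of each of 484 mature miRNAs, those with a summed count of 10 or more, with Benjamini-Hochberg adjustment over all 484. A miRNA is called higher or lower here at an adjusted p under 0.05, and it passes the size minimum if its log2 ratio is also at least 0.5 in size. As each group has 1 library, there is no replicate check, and the test compares a library with a library rather than exposed with control mice in general.

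miR-30a-5p, miR-30d-5p and miR-30e-5p were higher in exposed mice, while miR-30c-5p and miR-30b-5p were lower, so the 5p arms of the family did not move as a block between these libraries. The log2 ratio of miR-30a-5p was 0.27 (0.23 to 0.31), a 1.21-fold level (adjusted p = 3.49e-46, exact binomial test), and that of miR-30d-5p was 0.28 (0.24 to 0.31, adjusted p = 7.58e-46, exact binomial test). miR-30e-5p had the highest ratio of the 5p arms, 0.33 (0.28 to 0.39), a 1.26-fold level (adjusted p = 6.23e-30, exact binomial test), and its interval overlapped those of miR-30a-5p and miR-30d-5p. miR-30c-5p was at −0.11 (−0.15 to −0.06, adjusted p = 7.81e-05, exact binomial test) and miR-30b-5p at −0.23 (−0.38 to −0.09, adjusted p = 0.0103, exact binomial test). The intervals of the lower arms did not overlap those of the higher arms. No 3p arm passed the test. miR-30a-3p was at −0.10 (−0.26 to 0.06), miR-30e-3p at −0.18 (−0.35 to −0.02, p = 0.0284 before adjustment and 0.122 after it, exact binomial test), miR-30b-3p at −0.10 (−0.70 to 0.49) and miR-30d-3p at 0.53 (−0.71 to 1.82). With scaling by total reads miR-30e-3p was at −0.23 and was called lower (adjusted p = 0.0267, exact binomial test). At 11 and 14 reads a 2-fold change of miR-30d-3p was not detectable.

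None of the 9 members passed the size minimum, against 2.89% of the 484 miRNAs tested (0.62% higher and 2.27% lower). At any size 3 members were higher and 2 lower, against 17.6% of all tested (8.26% higher and 9.30% lower). All 5 had at least 1000 reads in the libraries together, where counting error is small. Among the 117 miRNAs of that depth 53.8% were called, and 5 of the 7 members of that depth. The SD of the log2 ratio over these 117 miRNAs was 0.23, and 15 of them had a larger log2 ratio than miR-30a-5p, 12 than miR-30d-5p and 9 than miR-30e-5p. The median log2 ratio was 0.27 over the 5p members and −0.10 over the 3p members of the list, beside −0.02 over the 230 tested 5p arms and −0.05 over the 234 tested 3p arms of all miRNAs. Among arms with at least 1000 reads the medians were 0.05 over 62 5p arms and −0.08 over 53 3p arms. A lower median for 3p than for 5p arms was thus not particular to miR-30. With the libraries treated as replicates of 1 group to obtain a dispersion, the exact test of edgeR called 0 of the 9 members at an adjusted p under 0.05, and 0 at an unadjusted p of at most 0.05. The lowest unadjusted p of a member was 0.139 for miR-30e-5p, and of all 484 miRNAs 0 were called at an adjusted p and 15 at an unadjusted one (2 higher and 13 lower).

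**Figure D2:**
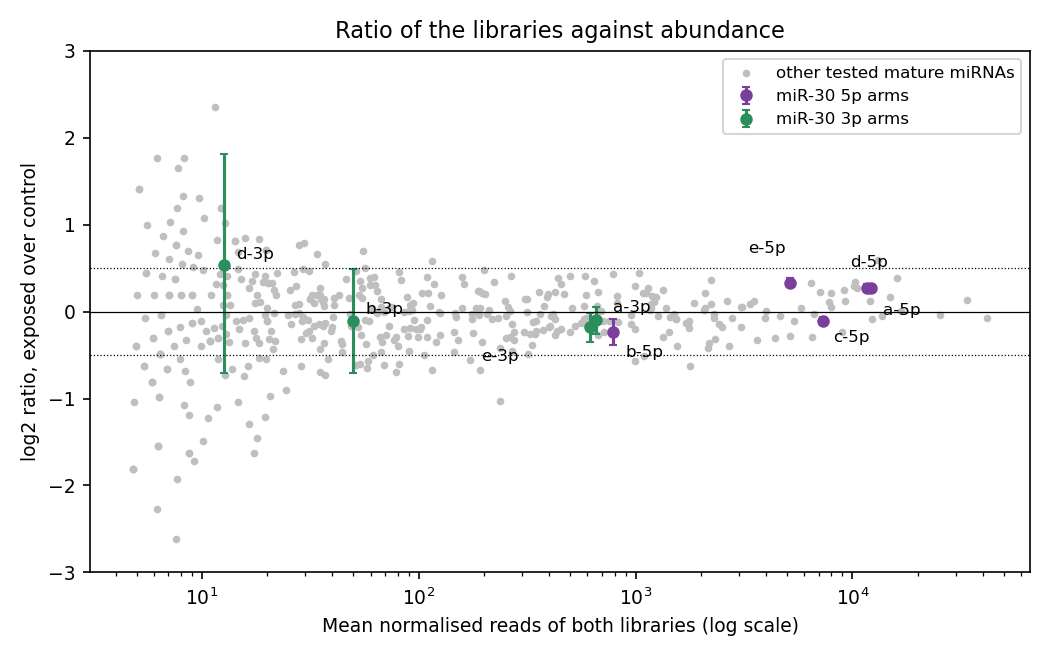
Log2 ratio of exposed over control mice against the mean normalised reads of both libraries (log scale) for the 484 mature miRNAs tested (grey), with the miR-30 5p arms in purple and the 3p arms in green; bars are exact 95% intervals of counting error and dotted lines the size minimum of 0.5. miR-30a-5p, miR-30d-5p and miR-30e-5p lie between 0.27 and 0.33, with miR-30c-5p at −0.11 and miR-30b-5p at −0.23.

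The ratios were then set beside the positions of the hairpins. On chromosome 15, 3.70 kb apart, miR-30d-5p was higher and miR-30b-5p lower. On chromosome 4 miR-30e-5p was higher, and on chromosome 1 miR-30a-5p was higher, whereas miR-30c-5p, which has a hairpin at each of these loci, was lower. Its reads cannot be divided between the loci. The 3p arms that tell the miR-30c hairpins apart are outside the member list. miR-30c-2-3p had 201 control and 203 exposed reads (a log2 ratio of 0.20, −0.09 to 0.49) and miR-30c-1-3p had 16 and 18 (0.36, −0.70 to 1.42), and neither passed the test. Of the printed 5p sequences, the higher miR-30a-5p and miR-30e-5p are 1 base apart and the lower miR-30c-5p is 5 bases from either.

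The makeup of the 5p reads, which does not depend on the scaling of the libraries, moved accordingly. miR-30c-5p took 22.0% of the summed 5p reads of the family in control mice (21.5 to 22.4%) and 17.8% in exposed mice (17.4 to 18.2%). miR-30a-5p went from 31.9% (31.4 to 32.4%) to 33.6% (33.2 to 34.1%), miR-30d-5p from 30.5% (30.02 to 31.0%) to 32.2% (31.8 to 32.7%) and miR-30e-5p from 13.2% (12.8 to 13.5%) to 14.5% (14.1 to 14.8%). miR-30b-5p went from 2.47% (2.32 to 2.64%) to 1.84% (1.70 to 1.98%). For each of the 5 arms the intervals of the libraries did not overlap, and the share of miR-30c-5p, the largest shift of the 5, dropped by 4.16 percentage points. Shares of 1 sum are not independent, as a drop of 1 share raises others. They also rest on the same reads as the ratios above. With miR-30c-5p reads halved, its share was 12.3% in control and 9.77% in exposed mice, lower in exposed mice as before. The summed 5p reads went from 36850 to 37069, a log2 ratio of 0.20 (0.17 to 0.22), or 1.14-fold. This sum joins arms that moved apart: miR-30a-5p, miR-30d-5p and miR-30e-5p together were at 0.28 (0.26 to 0.31) and miR-30b-5p and miR-30c-5p together at −0.12 (−0.16 to −0.08).

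**Figure D3:**
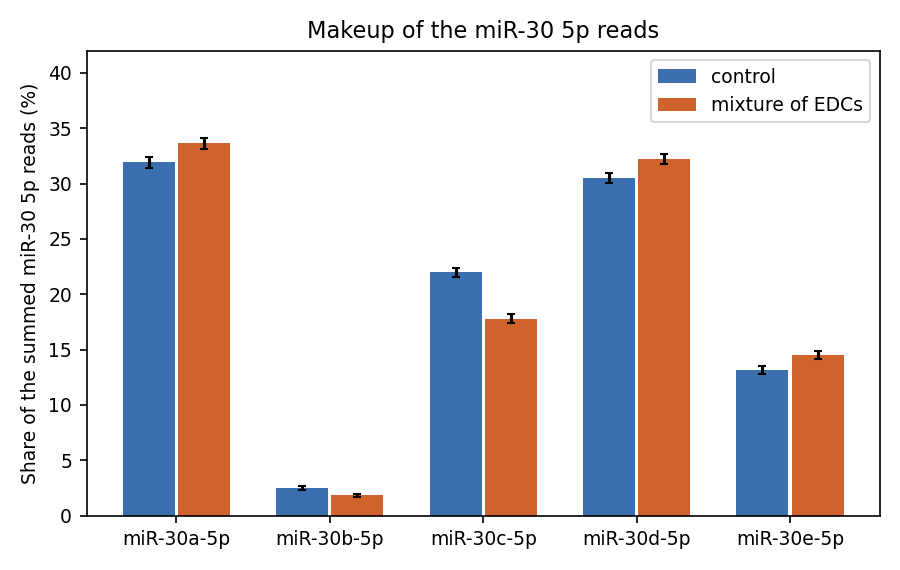
Share of each 5p arm in the summed reads of the 5 miR-30 5p arms (%), for control (blue) and the mixture of EDCs (orange), with exact 95% intervals of counting error. The share of miR-30c-5p goes from 22.0 to 17.8% and that of miR-30b-5p from 2.47 to 1.84%, and the other shares are larger in exposed mice.

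Arm use was compared next, as the share of the 5p arm in the reads of both arms of a hairpin. It was tested with a 2-sided Fisher's exact test for 276 hairpins with both arms named, adjusted over all 276. Each had at least 10 reads of both arms in the libraries together. The 5p arm dominated the 4 miR-30 hairpins whose arms could be paired, those of miR-30a, miR-30b, miR-30d and miR-30e. In miR-30d it took 99.9% of the reads in both libraries, with 11 reads of the 3p arm beside 11234 of the 5p arm in control mice and 14 beside 11948 in exposed mice. That is about 1021 and 853 5p reads per 3p read. In miR-30b the 5p share was 94.3% (92.7 to 95.7%) and 93.8% (91.8 to 95.4%). miR-30e used its 3p arm most. Over all hairpins tested, 140 of 276 had more 5p than 3p reads in control testes, and 147 had so in exposed testes, so a 5p preference was not the rule of the library.

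The 5p share was larger in exposed mice for miR-30e and miR-30a. In miR-30e it was 87.4% in control mice (86.5 to 88.3%) and 90.8% in exposed mice (90.1 to 91.6%), or 6.95 and 9.93 5p reads per 3p read. The log2 odds ratio of 5p over 3p was 0.52 (0.34 to 0.69, adjusted p = 1.3e-07, Fisher's exact test). In miR-30a the 5p share was 94.2% (93.8 to 94.6%) and 95.4% (95.1 to 95.8%), with a log2 odds ratio of 0.37 (0.21 to 0.53, adjusted p = 0.000187, Fisher's exact test). For miR-30b the odds ratio was −0.13 on the log2 scale (−0.74 to 0.49) and for miR-30d −0.26 (−1.54 to 0.99), and neither passed the test. The interval of miR-30d holds the values of miR-30a and miR-30e, and that of miR-30b holds the value of miR-30a but not that of miR-30e. Whether the shift differed from hairpin to hairpin was not tested. The 2 hairpins called are 2 of 4, against 4.35% of all hairpins tested (3.62% towards 5p and 0.725% towards 3p), or 13.2% of the 91 with at least 1000 reads.

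For miR-30c the arms cannot be paired, as its 5p reads may come from either hairpin. Against the summed 3p reads of Mir30c-1 and Mir30c-2, 217 in control and 221 in exposed mice, the 5p share was 97.4% (97.0 to 97.7%) and 96.8% (96.3 to 97.2%). With miR-30c-5p reads halved, a setting chosen after the values were seen, it was 94.9% and 93.7%. The 5p share was smaller in exposed mice for miR-30c, the other way from miR-30a and miR-30e, but its intervals overlapped and this was not tested. Of its 3p reads, 92.6% in control and 91.9% in exposed mice were those of miR-30c-2-3p, from chromosome 1.

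Shifts in arm use of this size were also found in other hairpins with enough reads of both arms. The next comparison took 26 hairpins with at least 500 reads in each arm in the libraries together, a minimum chosen after the values were seen. Their log2 odds ratio ranged from −0.56 to 0.69 with a median of 0.19 and an SD of 0.35. Of the 26, 12 were called, 10 of them towards 5p, and miR-30a and miR-30e are counted in both numbers. The value of miR-30e was exceeded by 5 and that of miR-30a by 7 of these hairpins, among them the near-identical miR-465a, miR-465b and miR-465c. miR-30e is 1 of those 7. In both miR-30a and miR-30e the 5p arm was called higher and the 3p arm had a log2 ratio below 0 that did not pass the test. The hairpin of Mir30f occupies the same bases as Mir30e on the other strand, and miR-30f had 0 reads in both libraries, which, at a floor of 3 reads of the library total, allows a share of up to 0.000545% in control and 0.000598% in exposed mice. By position, miR-30f (chr4:120772621-120772642) overlaps miR-30e-3p (chr4:120772618-120772639) and not miR-30e-5p (chr4:120772660-120772681). Whether strand was used in the counting is not given in the sources used here. Reads of miR-30e-3p, and with them the arm use of miR-30e, are uncertain to that extent. Reads set aside as ambiguous, which could include such reads, were 2919 in control and 2595 in exposed mice (0.528% and 0.515%), and their part in the result was not tested.

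**Figure D4:**
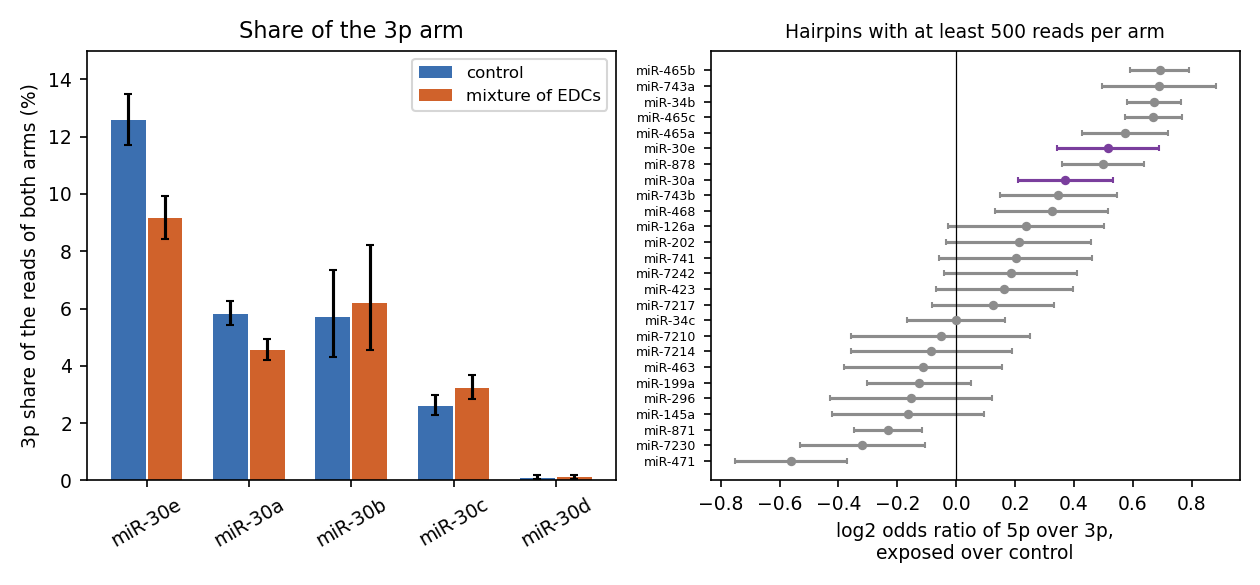
Left, share of the 3p arm in the reads of both arms (%) for the miR-30 hairpins in both libraries, with the hairpins of miR-30c joined. Right, log2 odds ratio of 5p over 3p reads, exposed over control, for the 26 hairpins with at least 500 reads in each arm in the libraries together. miR-30a and miR-30e are in purple, and bars are exact 95% intervals. The 3p share of miR-30e goes from 12.6 to 9.15% and that of miR-30a from 5.82 to 4.56%.

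Seeds were compared with all mature sequences of the RefSeq table, which held 1621 of the 1905 mature miRNAs. The seed GUAAACA was found in 1 further miRNA, miR-384-5p, which had 1 read in control and 0 in exposed mice. The reads with this seed among the sequences at hand were therefore those of the miR-30 family but for that read. The seed UUUCAGU of miR-30a-3p and miR-30e-3p was found in no other miRNA of the table. Both arms of miR-30b and miR-30d had no sequence there, so their seeds were not compared. miR-30c-1-3p and miR-30c-2-3p carry yet another seed, UGGGAGA.

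The miRNAs outside the family whose log2 ratio was nearest to that of the summed 5p arms, among those with at least 1000 reads, were let-7e-5p (0.19), miR-200a-3p (0.18) and miR-202-5p (0.21), each within 0.02 of it. miR-128-3p (0.18), with 1195 and 1188 reads, was as near as miR-202-5p to the digits printed. This likeness rests on 2 libraries and on the level of 1 ratio. miR-202 was also 1 of the 3 hairpins nearest to miR-30e in 5p share in control mice (86.0%, and 87.6% in exposed mice), with miR-7214 (85.7% and 85.0%) and miR-7217 (85.6% and 86.6%), and none of these 3 was called for arm use.

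In a testis sample fewer cells of a type and less RNA per cell cannot be told apart. Summed reads of 13 germ cell miRNAs, such as miR-34c-5p, made up 27.4% of control and 26.7% of exposed reads. These and the shares below are of all mature reads, whereas the ratios use the median-of-ratios scaling. On that scaling the germ cell sum had a log2 ratio of 0.02, so its direction depended on the scaling. The median log2 ratio of the 13 was −0.06, with 3 higher and 7 lower at any size. Each had at least 1000 reads in the libraries together. At that depth 53.8% of miRNAs were called, against 17.6% of all 484 tested. Of the miR-465 copies the list held miR-465a-3p alone (−0.52). It left out miR-465b-3p (−0.36), miR-465c-3p (−0.42), miR-465a-5p (0.06), miR-465b-5p (0.33) and miR-465c-5p (0.25), among others. The 2 arms of miR-202, of Sertoli and other somatic gonad cells, took 0.437% and 0.479% (1 of 2 higher). For 4 smooth muscle miRNAs the shares were 6.50% and 6.83% (1 higher), for 2 of endothelium 0.682% and 0.588% (1 lower) and for 2 of striated muscle 0.148% and 0.179% (1 higher, 1 lower). For 5 of red blood cells they were 0.0378% and 0.0417%, for 5 of white blood cells 0.0420% and 0.0387%, and for 5 of epithelium 0.301% and 0.292%, with none called in these lists. On the scaling of the ratios the epithelium sum was at 0.01, while white blood cells (−0.07) and endothelium (−0.16) stayed lower. Many rows of these lists had few reads, such as miR-141-3p with 8 in each library, and could be called less readily. miR-122-5p, a liver miRNA, had 0 control reads and 1 exposed read. The part of these shares in the miR-30 values was not tested.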

How the data were processed

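RNA of pooled testes gave 1 library per group, read single-end at 65 nucleotides. The authors deposited raw counts, 1 whole number of reads for each mature miRNA and library. Per the methods, adapters were trimmed with cutadapt, reads under 12 nucleotides were dropped, the rest were aligned to mm10 with bowtie (up to 3 mismatches, all best alignments) and counted with HTSeq on miRBase v21. Versions of these tools: not given in the sources used here. Lines that name no miRNA, such as ambiguous reads (0.528% and 0.515%), were left out.

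Members were tested within all 484 miRNAs and arms within all 276 hairpins, with exact tests as described in the results. edgeR's quasi-likelihood test needs replicates and was not used. The methods were tested on simulated counts that held counting error alone, with no spread between mice or libraries, and so do not bear on that spread. The rule for names took all members, rows named miR-30, miRNAs with a shared seed, and the 3 nearest in ratio and arm use. Alternatives were other scalings, minimums of reads and size, a pseudocount, edgeR's exact test, miR-30c-5p halved and sums without 1 arm. The members, lists and tests were chosen with earlier results of these data known. Python 3.11.15, scipy 1.17.1, R 4.3.3 and edgeR 4.0.16 were used. Sequences are from RefSeq (GRCm38.p6), host genes from GENCODE M21.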

Additional observations from a re-analysis of the deposited data

How the results depend on the processing

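No paired analysis was possible because each group has 1 library, and for the same reason no library could be left out. No member changed direction under any scaling or the pseudocount. miR-30e-3p alone crossed the threshold with a scaling (total reads). The log2 ratio of the summed 5p arms, 0.20, was 0.14 with scaling by total reads, 0.22 with TMM, 0.17 with total reads without the 10 most abundant miRNAs, 0.23 with miR-30c-5p halved, and 0.16 without miR-30d-5p or without miR-30a-5p. With no size minimum 85 miRNAs and 5 members were called, in place of 14 and 0. A size minimum of 1.0 left 5 miRNAs. edgeR's exact test called 0 miRNAs at an adjusted p, and 0 members at any size at an adjusted or an unadjusted p. For arm use, a log2 odds ratio of at least 0.5 left 1 of the 2 miR-30 hairpins, miR-30e, and 7 of 12 hairpins in all. Minimums of 50 reads of both arms, or of 5 in each arm, kept both counts within 1.5 times. At any size 40 miRNAs were higher and 45 lower, a split that was 34 and 69 after scaling by total reads, 35 and 55 when the 10 most abundant miRNAs were left out of those totals, and 47 and 39, with more higher than lower, by TMM. miR-30b-3p and miR-30d-3p, with 100 and 25 reads in both libraries together, are limited by depth. The cause of these shifts was not tested.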
